A study of Mus musculus with 6 samples.

Results

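The genes described here encode the stress sensors of the endoplasmic reticulum (ER), its folding helpers, the enzymes that form disulphide bonds in its lumen, and the machinery of ER-associated degradation (ERAD). The group was chosen by name as a list of 35 genes, and all 35 were present in the tables among 23850 gene entries. They were sorted by role into 4 sensor genes, 11 folding genes, 9 oxidation genes and 11 degradation genes. RNA had been sequenced from 6 cultures of germinal centre B cells made in vitro, 3 given CHIR99021, a small-molecule inhibitor of the GSK3 kinases, and 3 given its solvent DMSO. All came from wild-type C57BL/6J mice: naive follicular B cells spent 4 days on CD40L-expressing feeder cells with IL-4 at 1 ng/ml. They were then exposed to CHIR99021 at 3 uM, or to DMSO, for 36 h on such feeders with IL-21 at 10 ng/ml, and the labels print 3 uM beside DMSO too. RNA came from purified cells, and the method of purification is not stated in the labels. Such cells are a culture model of the germinal centre, and no antigen or T cell is named in the labels.

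Proteins bound for the cell surface or for secretion fold in the ER with the help of chaperones, receive their disulphide bonds from oxidases and disulphide isomerases, and are pulled back into the cytosol for destruction when folding fails. When unfolded chains build up, 3 membrane sensors start the unfolded protein response. IRE1, the product of Ern1, splices the messenger RNA of the transcription factor XBP1, PERK, the product of Eif2ak3, slows translation through eIF2, and ATF6 is cut to release a transcription factor. In B cells this system enlarges as they turn into antibody-secreting plasma cells, and XBP1 is needed for that secretion.

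ATF6 with the CCAAT-binding factor NF-Y, and XBP1, are known to act through the ER stress response element (ERSE). The exact letters CCAAT, followed by 9 bases of any kind and then CCACG, read on both strands, were looked for in the RefSeq promoter windows of GRCm38.p6, the assembly that mm10 names, each 300 bases long and running from 250 bases before a gene's start to 50 after it. A window was present for 30 of the 35 genes, and the 5 without one were Atf6, Hyou1, Manf, Sil1 and Derl1. The ERSE was found in 10 of these 30 genes (33.3%), against 39 of all 32851 windows (0.119%). The 10 were Hspa5, Hsp90b1, Calr, Canx, Dnajc3, Pdia6, Creld2, Ero1lb, Syvn1 and Derl3. Outside the list the element was found for 27 other genes, of which 4 were tested, against all 10 of the listed ones. The rest of the 27 either had no gene entry or were too low to be tested. The shorter ERSE-II, ATTGG and CCACG with 1 base of any kind between them, was found in Herpud1 and Dnajb11 (6.67% of the 30, and 0.0365% of all windows). Each ERSE also counts as a match to its parts CCAAT, present in 83.3% of the 30 and 37.4% of all windows, and CCACG, present in 86.7% and 32.8%. The other letters searched on both strands were TGACGTGG, the unfolded protein response element (Vcp, and 0.676% of all windows), TGACGTGA, like a cyclic AMP response element (Hspa5, and 0.441%), and TTGCATCA, an amino acid response element read by ATF4 and C/EBP factors (Herpud1, and 0.895%). A match is a description of the letters and not a shown binding site.
The stretches below lie upstream of the gene's start, run 5′ to 3′ along the gene's strand, and carry the element in capitals. They are shown because they set partners with the same element but different readings side by side: calnexin beside calreticulin, the isomerase gene Pdia6 beside the oxidase gene Ero1lb, Hspa5 with the best known of these promoters, Creld2 whose element is shared with a neighbouring gene, Derl3, and Herpud1 with the ERSE-II.
Canx (chr11:50325780-50325838, minus strand): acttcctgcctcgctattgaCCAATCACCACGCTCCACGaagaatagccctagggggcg
Calr (chr8:84847055-84847113, minus strand): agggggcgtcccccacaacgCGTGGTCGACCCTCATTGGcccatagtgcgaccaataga
Pdia6 (chr12:17266471-17266529, plus strand): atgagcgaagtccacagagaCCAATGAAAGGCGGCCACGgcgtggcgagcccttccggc
Ero1lb (chr13:12565662-12565720, plus strand): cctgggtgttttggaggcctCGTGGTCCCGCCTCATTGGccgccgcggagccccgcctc
Hspa5 (chr2:34772005-34772063, plus strand): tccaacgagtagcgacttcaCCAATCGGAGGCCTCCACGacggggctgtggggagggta
Creld2 (chr15:88819500-88819558, plus strand): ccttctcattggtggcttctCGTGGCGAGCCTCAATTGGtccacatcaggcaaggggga
Derl3 (chr10:75893222-75893280, plus strand): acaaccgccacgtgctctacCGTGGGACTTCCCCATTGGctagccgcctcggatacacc
Herpud1 (chr8:94386357-94386407, plus strand): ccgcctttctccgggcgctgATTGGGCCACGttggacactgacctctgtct
In Canx, Pdia6, Hspa5 and Herpud1 the capitals read in the forward direction, and in Calr, Ero1lb, Creld2 and Derl3 they are the reverse complement.

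Levels are FPKM (fragments scaled for transcript length and library total), so genes can be compared within a library. This scaling does not correct for differences in composition between libraries, so upper-quartile and quantile scaling were run beside it. Each table summed to between 527290 and 617449 FPKM, and the median listed gene had Cufflinks confidence limits within 6.02% to 7.89% of its value, against 12.5% to 15.4% for the median tested gene. The number of sequenced fragments is not stated. B cell markers were present throughout, at a summed level of 2579 to 3433 FPKM in DMSO and 1281 to 1522 in CHIR99021, and 6 of 6 passed the test as lower (5 of 6 with either other scaling). Of 9 plasma cell markers tested, 6 were higher and 0 lower (7 and 1 with the replicate number as a block, a fit described in the next paragraph), among them Irf4 (30.5 ± 2.04 to 82.1 ± 8.01 FPKM) and Prdm1 (6.27 ± 1.499 to 16.2 ± 2.74), while Sdc1, the surface proteoglycan CD138, had 5.09 ± 1.70 and 4.12 ± 0.916 (SD, n = 3 per group). The marker called lower with the block was Igj, at 452 ± 135 FPKM in DMSO and 289 ± 57.5 in CHIR99021. Igj was lower in 3 of 3 same-numbered pairs, but its groups overlapped and it was not called without the block. Tnfrsf17, at 0.673 ± 0.605 FPKM in DMSO and 0.115 ± 0.102 in CHIR99021, was too low to be tested. The summed level of the 10 plasma cell markers overlapped between groups, at 851 to 1157 FPKM in DMSO and 1022 to 1136 in CHIR99021. Xbp1 and Mzb1 of this list also stand in the pathway lists below. Fibroblast or stromal markers summed to 354, 127 and 84.8 FPKM in DMSO replicates 1, 2 and 3 and to 273, 107 and 63.7 in CHIR99021 replicates 1, 2 and 3, so that replicate 1 stood highest in both groups, and each CHIR99021 sum was below that of the same-numbered DMSO library. Of 6 such markers tested, 0 were higher and 1 lower, or 4 lower with the replicate block (Col1a2, Col3a1, Fn1 and Thy1). The 8 T cell markers in the files summed to 12.3 to 18.8 FPKM, most of it from Lck, with Cd3e and Cd8b1 at 0 in every library. Myeloid markers summed to 26.0 to 33.9 FPKM in DMSO and 13.5 to 20.5 in CHIR99021, with Cd14 at 0 in every library. Of 3 myeloid markers tested, 0 were higher and 2 lower (2 lower with the block, 1 with quantile scaling). The 2 were Itgam (5.34 ± 0.791 to 1.42 ± 0.525 FPKM) and Cd68 (22.3 ± 3.57 to 11.5 ± 5.11). The part of these markers in the results below was not tested, and in bulk RNA fewer cells of a type and less RNA per cell cannot be told apart.

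With CHIR99021, 11 of the 34 tested genes rose and 0 fell, and the largest rises were those of Ern1 (3.02-fold), Ero1l (2.195-fold), Hyou1 (1.84-fold) and P4hb (1.78-fold). A gene was tested where its mean over the 6 libraries was 1 FPKM or more, which left out Pdia5, and it was called at an adjusted p under 0.05 by limma over all 10096 tested genes. Over all tested genes 21.4% were called, 8.13% higher and 13.3% lower. Of those calls 37.9% were higher with the values as deposited, 48.7% with upper-quartile scaling and 51.2% with quantile scaling. Each of these scalings called 15 of the 34 genes higher and 0 lower. Of all tested genes, upper-quartile scaling called 11.0% higher and 11.6% lower (22.7% in all). Quantile scaling called 12.2% higher and 11.6% lower (23.8% in all). The list's median log2 change was 0.25, and that of all tested genes was -0.04. All log2 changes here are differences of log2(FPKM + 1), CHIR99021 minus DMSO, and folds are ratios of mean FPKM. Same-numbered libraries of the groups varied together, so a fit with the replicate number as a block was run beside the main one: it called 19 of the 34 higher and 1 lower, against 18.4% higher and 24.4% lower (42.8% in all) over all tested genes. All 11 of the genes called without the block were called with it in the same direction. The groups did not overlap for 18 genes with CHIR99021 higher and for 1 with CHIR99021 lower, against 17.0% and 23.1% (40.1% in all) of the tested genes. Without CHIR99021 replicate 3 the number called fell to 6, all of them higher. The main test and the fits with a library left out did not use the replicate number. A call missed or lost in them below is therefore one made without the pairing.

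**Figure D1:**
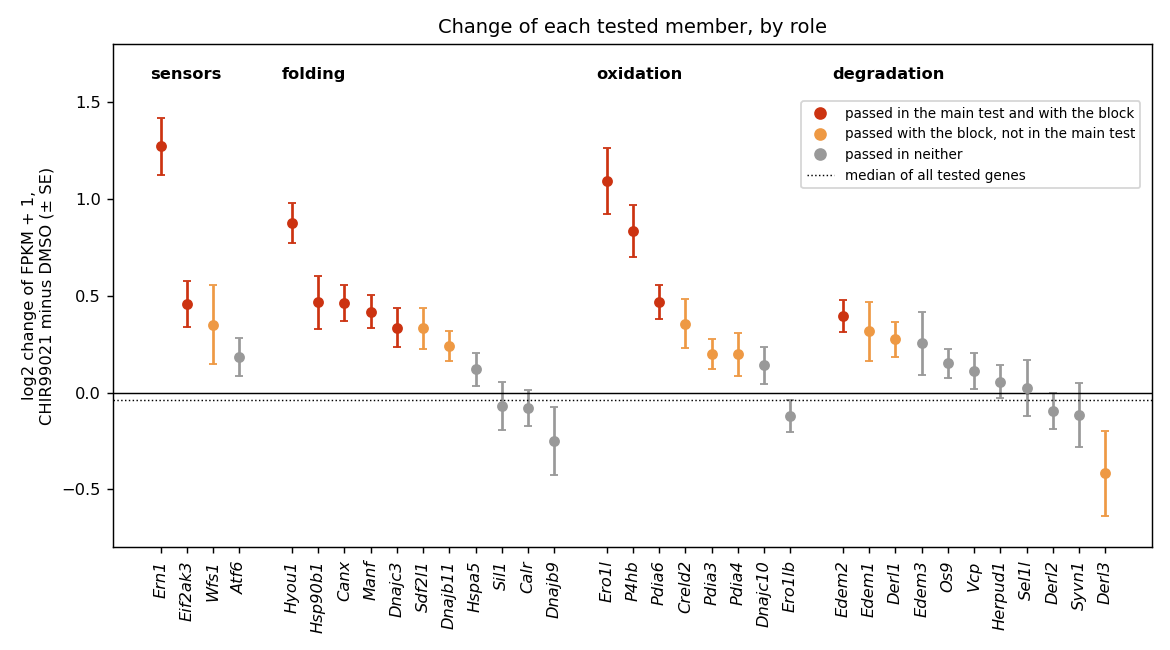
Log2 change (y axis, log2 of FPKM + 1, CHIR99021 minus DMSO) of each of the 34 tested genes by role, with bars for the standard error; colours give the calls without and with the replicate block, and the dotted line is the median of all tested genes. Ern1 at 1.27 and Ero1l at 1.09 stand highest, and Derl3 at -0.42 stands lowest.

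Summed over the 35 genes, the level was 3274, 3309 and 3589 FPKM in DMSO replicates 1, 2 and 3 and 3956, 4107 and 4338 FPKM in CHIR99021 replicates 1, 2 and 3. That was 0.530% to 0.628% of all FPKM in DMSO libraries and 0.642% to 0.738% in CHIR99021 libraries, so that every CHIR99021 library lay above every DMSO library. The roles did not share this equally. Oxidation genes summed to 867 ± 45.8 and 1210 ± 55.9 FPKM in DMSO and CHIR99021 (1.396-fold), sensors to 39.2 ± 3.39 and 53.1 ± 2.64 (1.35-fold), folding genes to 1887 ± 113 and 2219 ± 139 (1.18-fold), and degradation genes to 598 ± 36.3 and 651 ± 30.7 (1.09-fold). These sums are descriptions with no test, and they follow the most abundant genes of each role.

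**Figure D2:**
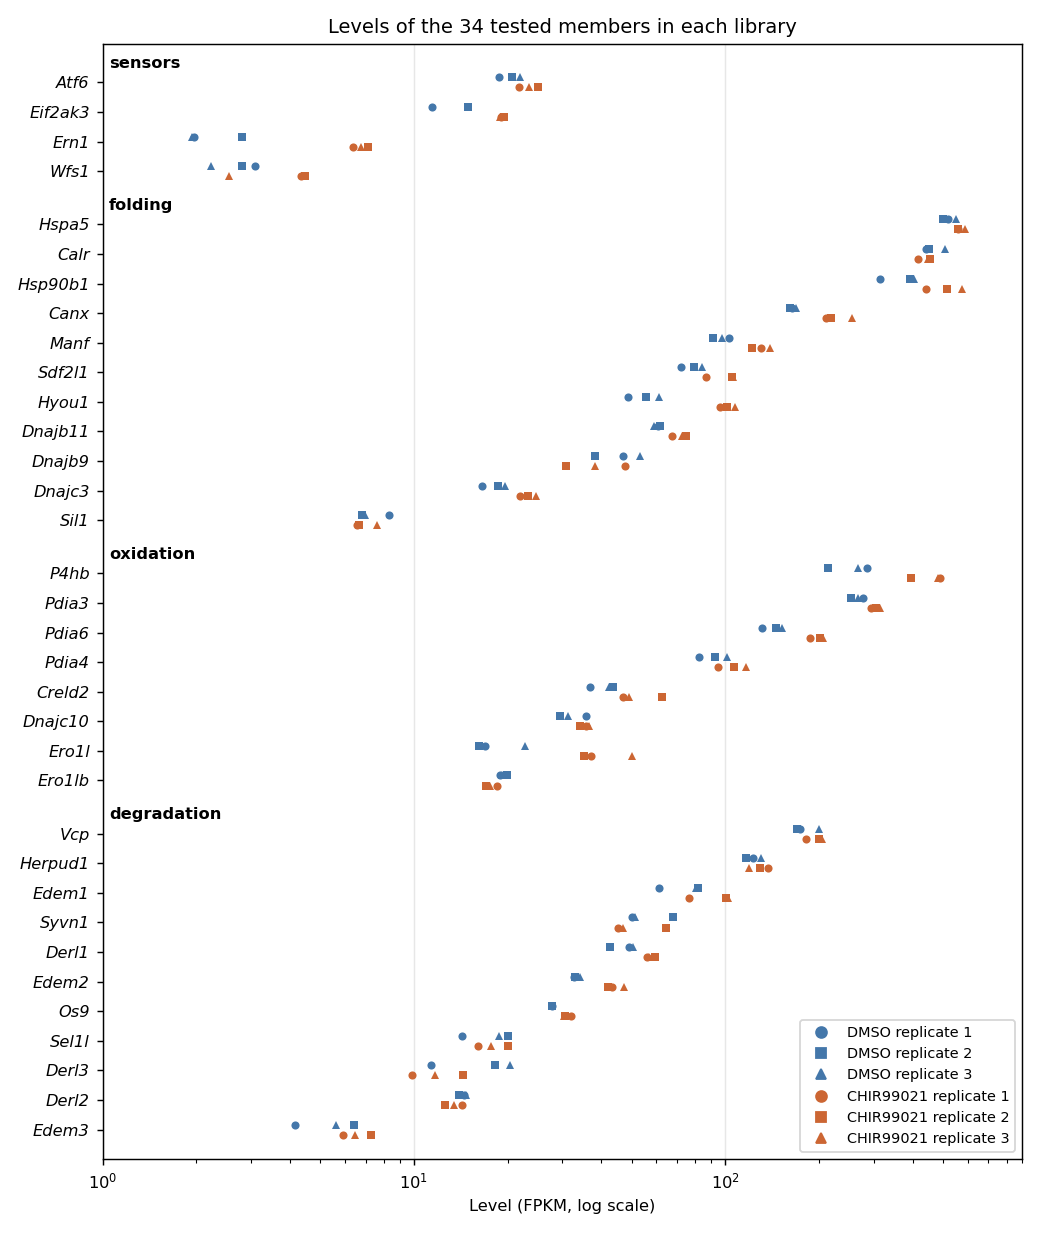
FPKM (x axis, log scale) of the 34 tested genes in each of the 6 libraries, by role and ordered by mean level, with DMSO in blue above and CHIR99021 in orange below, and a marker shape for each replicate number. Hspa5, Calr and Hsp90b1 are the most abundant, and the 3 CHIR99021 libraries lie to the right of the 3 DMSO libraries for 18 genes.

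Among the sensors, Ern1 and Eif2ak3 rose, and Atf6 and Wfs1 did not pass the test. Ern1 (chromosome 11, 106397620 to 106487796), which encodes the kinase and RNase IRE1, had 1.96, 2.81 and 1.94 FPKM in DMSO replicates 1, 2 and 3 and 6.38, 7.13 and 6.78 in CHIR99021 replicates 1, 2 and 3. The highest DMSO library was thus less than 3 FPKM and the lowest CHIR99021 library more than 6. Its log2 change was 1.27 ± 0.15 (SE, adjusted p = 0.00146), and it was called without any one of the 6 libraries (adjusted p at most 0.0107). Ern1 nonetheless was among the less abundant genes of the list, with 25.1% of tested genes below it.

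Eif2ak3 (chromosome 6, 70844527 to 70905240), which encodes PERK, had 11.4, 14.9 and 14.97 FPKM in DMSO and 19.0, 19.5 and 18.9 in CHIR99021. The CHIR99021 cultures were close to one another, and DMSO replicate 1 was the lowest of all. The log2 change was 0.46 ± 0.12 (SE, adjusted p = 0.0318, or 0.00817 with the block). The call was kept only on leaving out DMSO replicate 2 among the 6 libraries: it was lost without DMSO replicate 1 (0.0606), DMSO replicate 3 (0.0531), or any of CHIR99021 replicates 1 (0.0749), 2 (0.0873) and 3 (0.1001), and with no limit on level (0.0580). Atf6 had 20.5 ± 1.58 and 23.4 ± 1.63 FPKM (SD, n = 3 per group; adjusted p = 0.223, or 0.0708 with the block), and its groups overlapped. Wfs1, which encodes the ER membrane protein wolframin, had 3.09, 2.80 and 2.22 FPKM in DMSO and 4.35, 4.47 and 2.55 in CHIR99021. The third CHIR99021 library fell among the DMSO values, and the gene missed in the main test (adjusted p = 0.261) and passed with the block (0.0494).

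Of the 11 folding genes, 5 rose and 0 fell (7 higher and 0 lower with the block), and the median log2 change was 0.33. The shares over all tested genes were 8.13% higher and 13.3% lower (18.4% and 24.4% with the block). The chaperone BiP is an Hsp70-type ATPase that binds unfolded chains, and its partners include J-domain proteins that load it and exchange factors that empty it. Hspa5 (chromosome 2, 34772090 to 34776529), which encodes BiP, was the most abundant gene of the list, at 518, 500.4 and 550.5 FPKM in DMSO and 558, 560 and 588 FPKM in CHIR99021. Every CHIR99021 library was above every DMSO library, but by little: the fold was 1.09 and the log2 change 0.12 ± 0.08 (SE, adjusted p = 0.356, or 0.0795 with the block), so it was not called.

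The BiP exchange factor gene Hyou1 (chromosome 9, 44379490 to 44392369) had 48.7, 55.6 and 61.2 FPKM in DMSO and 96.5, 101 and 108 in CHIR99021. All 3 treated cultures lay far above all 3 controls, and the log2 change was 0.88 ± 0.10 (SE, adjusted p = 0.0014). It was called in each fit with a library left out (adjusted p at most 0.0104). The other exchange factor gene, Sil1, had 7.35 ± 0.826 and 6.95 ± 0.586 FPKM (adjusted p = 0.748), and its 6 values overlapped.

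Of the J-domain partners of BiP in this role, Dnajc3, whose product also inhibits eIF2 kinases, rose. It had 16.5, 18.6 and 19.7 FPKM in DMSO and 21.9, 23.3 and 24.6 in CHIR99021, with no overlap. The log2 change was 0.34 ± 0.10 (SE, adjusted p = 0.048, or 0.00688 with the block), and the call was lost on leaving out any one library (0.0688 to 0.171), with no limit on level (0.0659) and without the variance trend (0.0681). Dnajb11 had 60.6, 61.6 and 59.2 FPKM in DMSO and 67.2, 74.9 and 72.8 in CHIR99021, also with no overlap. It missed the threshold in the main test (adjusted p = 0.0621) and passed with the block (0.0171), with upper-quartile scaling (0.0242) and with quantile scaling (0.0302). Sdf2l1, which forms a complex with Dnajb11 protein, had 72.0, 79.1 and 84.4 FPKM in DMSO and 86.8, 105 and 106 in CHIR99021. It too missed in the main test (adjusted p = 0.0619) and passed with the block (0.00405), with upper-quartile scaling (0.0279), with quantile scaling (0.0353) and without CHIR99021 replicate 1 (0.0342). Dnajb9, whose product returns BiP to IRE1 and is a well-known XBP1 target, had 46.9, 38.2 and 53.1 FPKM in DMSO and 47.6, 30.8 and 38.1 in CHIR99021. Its groups overlapped, its log2 change was -0.25 ± 0.18 (SE), and it passed in neither fit (adjusted p = 0.358, or 0.0798 with the block).

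Hsp90b1 (chromosome 10, 86690841 to 86705444), the ER member of the Hsp90 family and a chaperone of integrins and Toll-like receptors, had 315, 390.4 and 404 FPKM in DMSO and 442, 516 and 575 in CHIR99021. The groups did not overlap, and in both of them replicate 1 was lowest and replicate 3 highest. The log2 change was 0.47 ± 0.14 (SE, adjusted p = 0.0465, or 0.00064 with the block). Without CHIR99021 replicate 1 the call was kept, and it was lost on leaving out DMSO replicate 1 (0.120), DMSO replicate 2 (0.0564), DMSO replicate 3 (0.0698), CHIR99021 replicate 2 (0.111) or CHIR99021 replicate 3 (0.169), with quantile scaling (0.0552), with no limit on level (0.0948) and without the variance trend (0.0671). Manf (chromosome 9, 106887415 to 106891938), which encodes a small ER-resident stress protein that can be secreted, had 103, 91.6 and 97.4 FPKM in DMSO and 131, 122 and 139 in CHIR99021 (log2 change 0.42 ± 0.09 SE, adjusted p = 0.0128). Its call was lost only without CHIR99021 replicate 3 among the 6 libraries (0.0649).

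Calnexin and calreticulin are lectins that hold glycoproteins while they fold, the first tethered in the membrane and the second soluble. Canx (chromosome 11, 50293957 to 50325673) had 163, 161 and 169 FPKM in DMSO and 210.1, 218 and 254 FPKM in CHIR99021 (log2 change 0.46 ± 0.09 SE, adjusted p = 0.0123, at most 0.0496 with a library left out). The DMSO cultures lay close together, below all treated ones. Calr (chromosome 8, 84842088 to 84846931) had 441, 451 and 506 FPKM in DMSO and 417, 456 and 449 in CHIR99021. Those values overlapped, and the log2 change was -0.08 ± 0.09 (SE, adjusted p = 0.586).

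Of the 9 oxidation genes, 8 were tested, of which 3 rose and 0 fell (6 higher and 0 lower with the block), with a median log2 change of 0.28. Among all tested genes, 8.13% were called higher and 13.3% lower (18.4% and 24.4% with the block). P4hb (chromosome 11, 120560304 to 120572936), which encodes the founding protein disulphide isomerase, had 285, 214 and 267 FPKM in DMSO and 489, 396 and 480.4 FPKM in CHIR99021. The lowest treated culture was well above the highest control, and replicate 2 was lowest in both groups. The log2 change was 0.84 ± 0.13 (SE, adjusted p = 0.00514). Pdia6 (chromosome 12, 17266595 to 17284770), an isomerase that binds BiP, had 131, 146 and 152 FPKM in DMSO and 187, 202 and 205 in CHIR99021 (log2 change 0.47 ± 0.09 SE, adjusted p = 0.00884). Both genes were called without any one of the libraries (adjusted p at most 0.0299 for P4hb and 0.0491 for Pdia6).

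The oxidases encoded by Ero1l and Ero1lb pass electrons from the isomerases to oxygen. Ero1l (chromosome 14, 45283087 to 45318572) had 16.9, 16.1 and 22.7 FPKM in DMSO and 37.0, 35.2 and 50.1 in CHIR99021. It was highest in replicate 3 of both groups, and the log2 difference between same-numbered libraries was 1.09, 1.08 and 1.11 for numbers 1, 2 and 3. The overall log2 change was 1.09 ± 0.17 (SE, adjusted p = 0.00457, at most 0.0172 with a library left out). Ero1lb (chromosome 13, 12565883 to 12609528) had 18.9, 19.9 and 19.2 FPKM in DMSO and 18.5, 17.1 and 17.6 in CHIR99021. Its groups did not overlap, with CHIR99021 lower, but the log2 change of -0.12 ± 0.08 (SE) was not called (adjusted p = 0.352, or 0.211 with the block).

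The remaining oxidation genes moved less. Pdia3, which encodes the isomerase that works with calnexin and calreticulin, had 276, 253 and 266 FPKM in DMSO and 294, 305 and 313 in CHIR99021, with no overlap. It missed in the main test (adjusted p = 0.112) and passed with the block (0.0274) and with quantile scaling (0.0212). Pdia4, another isomerase gene, had 82.4, 92.7 and 101 FPKM in DMSO and 94.5, 107 and 117 in CHIR99021. Its groups overlapped, yet the log2 difference was 0.20 in each of the same-numbered pairs, and it passed with the block (adjusted p = 0.0203) but not in the main test (0.246). Creld2, an isomerase-like gene that responds to ER stress, had 36.7, 43.6 and 42.3 FPKM in DMSO and 46.9, 62.4 and 49.2 in CHIR99021. It missed in the main test (adjusted p = 0.0835) and passed with the block (0.00863), with upper-quartile scaling (0.0405) and with quantile scaling (0.0453). Dnajc10, which encodes a reductase that opens disulphide bonds ahead of degradation, had 32.1 ± 3.23 and 35.4 ± 1.13 FPKM (adjusted p = 0.334). Pdia5 was too low to be tested: its FPKM were 0.527, 0.0597 and 0 in DMSO and 0.324, 0.135 and 0.0787 in CHIR99021.

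Of the 11 degradation genes, 1 rose and 0 fell (3 higher and 1 lower with the block), and the median log2 change was 0.11. That 1 call of 11 is near the share of all tested genes called higher, 8.13% (18.4% with the block). In ERAD, EDEM proteins trim mannose from misfolded glycoproteins, OS9 reads the trimmed glycan, and SEL1L with the ubiquitin ligase encoded by Syvn1 moves the chain out past the derlins, where the ATPase encoded by Vcp extracts it. The gene that rose was Edem2 (chromosome 2, 155701673 to 155729475), at 32.6, 32.9 and 34.2 FPKM in DMSO and 43.3, 41.9 and 47.1 in CHIR99021. Its control values lay close together, below every treated value. The log2 change was 0.40 ± 0.08 (SE, adjusted p = 0.0128), and the call was lost without CHIR99021 replicate 3 (0.0643).

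Edem1 and Derl1 missed the threshold in the main test and passed with the block. Edem1 had 61.5, 81.5 and 80.7 FPKM in DMSO and 76.7, 100.3 and 102 in CHIR99021. Replicate 1 was lowest in both groups, so that the groups overlapped, while the same-numbered differences were 0.31, 0.30 and 0.34 on the log2 scale (adjusted p = 0.00369 with the block, against 0.177). Derl1, which encodes a channel component of the retrotranslocation machinery, had 49.2, 42.8 and 50.5 FPKM in DMSO and 56.2, 59.5 and 56.9 in CHIR99021, without overlap (adjusted p = 0.0269 with the block, against 0.0642). It also passed with upper-quartile scaling (0.0281) and with quantile scaling (0.0178). Its paralogue Derl3 went the other way, at 11.3, 18.2 and 20.3 FPKM in DMSO and 9.87, 14.4 and 11.7 in CHIR99021. It was lower in 3 of 3 same-numbered pairs and was called lower with the block (adjusted p = 0.0272, against 0.217), or without DMSO replicate 1 (0.0375).

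The core of the degradation complex gave no call in either fit. Syvn1 had 56.4 ± 9.80 and 52.2 ± 10.6 FPKM (adjusted p = 0.680) and Sel1l had 17.7 ± 2.99 and 17.9 ± 2.04 (adjusted p = 0.930). Syvn1 was highest in replicate 2 of both groups, at 67.7 and 64.4 FPKM. Herpud1, which encodes a scaffold of this complex, had 123.4 ± 6.68 and 128 ± 9.06 FPKM (adjusted p = 0.701), and Vcp had 181 ± 16.4 and 195 ± 11.9 (adjusted p = 0.452). Os9 had 27.8, 27.8 and 27.8 FPKM in DMSO and 32.0, 30.7 and 30.4 in CHIR99021, with no overlap, but was not called (adjusted p = 0.193, or 0.0854 with the block). Edem3 and Derl2 had log2 changes of 0.26 and -0.09 and were not called in either fit (adjusted p = 0.304 and 0.522 without the block). A missed threshold with 3 libraries per group does not show that these genes were equal between the groups.

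The ratio of FPKM between functional partners was taken within each library, for 6 pairs picked after their values had been seen. The ratio of Ero1l to Ero1lb was 0.895, 0.810 and 1.18 in DMSO and 2.003, 2.06 and 2.85 in CHIR99021, so that Ero1l went from about the level of its paralogue to more than 2 times that level. Calnexin over calreticulin, Canx to Calr, was 0.354 ± 0.0183 and 0.517 ± 0.0457 (SD, n = 3 per group), and Hyou1 to Sil1 was 7.62 ± 1.54 and 14.7 ± 0.526. P4hb to Pdia3 was 0.960 ± 0.0985 and 1.4975 ± 0.184. P4hb was slightly above Pdia3 in DMSO replicates 1 and 3 (1.03 and 1.002), below it in DMSO replicate 2 (0.848), and above it in every CHIR99021 library. For these 4 pairs the groups did not overlap. The ratio of Derl1 to Derl3 was 3.06 ± 1.11 and 4.90 ± 0.775, with overlap, and that of Edem2 to Edem1 was 0.453 ± 0.0684 and 0.481 ± 0.0759, also with overlap. By an exact two-sided permutation test of the log2 ratios, p was 0.1 for each of the 4 pairs without overlap, which is the smallest that 3 against 3 can give, 0.2 for Derl1 to Derl3 and 0.6 for Edem2 to Edem1 (0.15, 0.24 and 0.6 adjusted over the 6 pairs). Each of those 4 pairs set a gene called higher over one that was not called. Their separation follows largely from that choice, and the test could not reach 0.05, so the ratios are descriptions and no separate support.

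**Figure D3:**
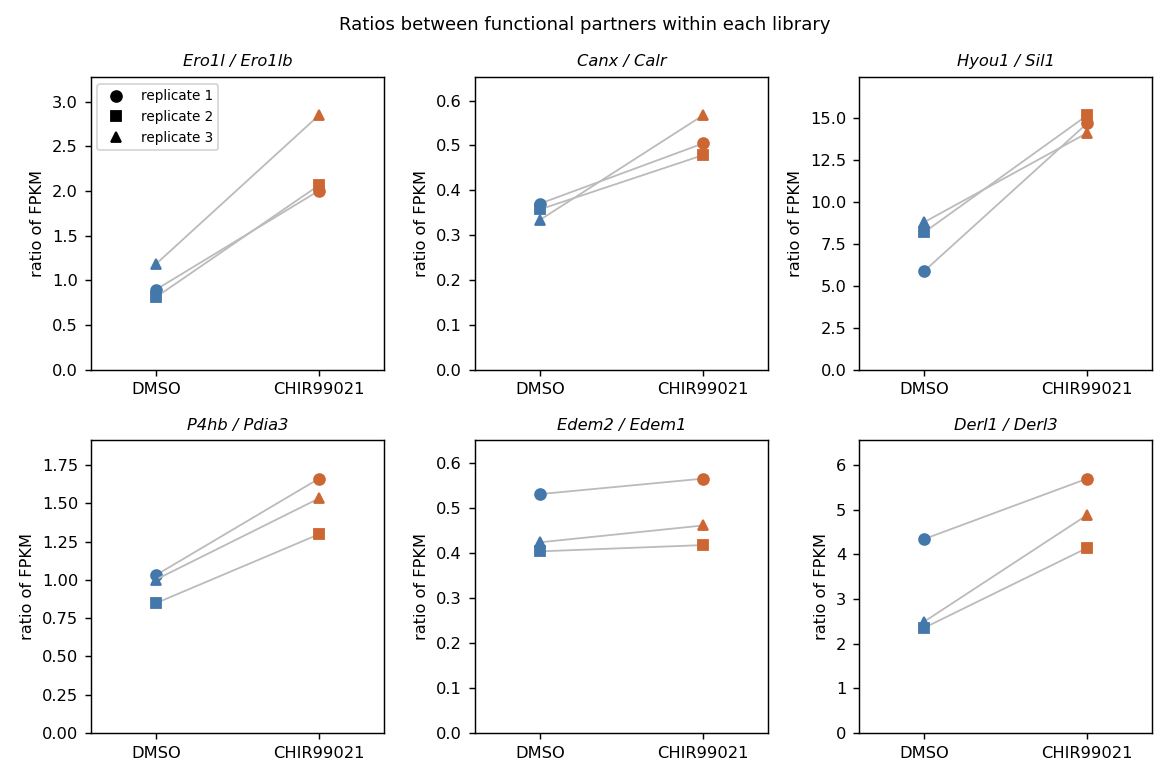
Ratio of FPKM between functional partners (y axis, from 0) in each library, with DMSO at left and CHIR99021 at right, a marker shape per replicate number and grey lines joining same-numbered libraries. The groups are apart for Ero1l to Ero1lb, Canx to Calr, Hyou1 to Sil1 and P4hb to Pdia3, and overlap for Edem2 to Edem1 and Derl1 to Derl3.

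Genes with and without the ERSE printed above were read side by side. Of the 10 genes with an exact ERSE, 4 rose and 0 fell: Canx, Hsp90b1, Dnajc3 and Pdia6. With the block 5 of the 10 were higher and 1 lower, which was Derl3. Of the 19 tested genes whose window held no exact ERSE, 5 rose and 0 fell: Ern1, Eif2ak3, P4hb, Ero1l and Edem2. With the block 11 of the 19 were higher and 0 lower. The median log2 change was 0.23 with the element and 0.24 without it, against -0.04 over all tested genes. Of all tested genes, 8.13% were called higher and 13.3% lower (18.4% and 24.4% with the block). The class without an exact ERSE includes Dnajb11 and Herpud1, with the ERSE-II, and Vcp, with the unfolded protein response element. Inexact matches and sites outside the windows were not looked for. A part of the element in these changes was not tested. The 3 largest changes among genes with a window (Ern1, Ero1l and P4hb) came from windows with no exact match, and the range among genes with the element ran from -0.42 for Derl3 to 0.47 for Pdia6. The element of Creld2 (chromosome 15, 88819520 to 88819538) also lies in the window of Alg12, a mannosyltransferase gene of N-glycan synthesis transcribed away from it on the opposite strand. Alg12 had 5.52 ± 0.388 and 5.36 ± 1.06 FPKM (SD, n = 3 per group; adjusted p = 0.860, or 0.742 with the block), beside 40.9 ± 3.63 and 52.8 ± 8.35 for Creld2.

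**Figure D4:**
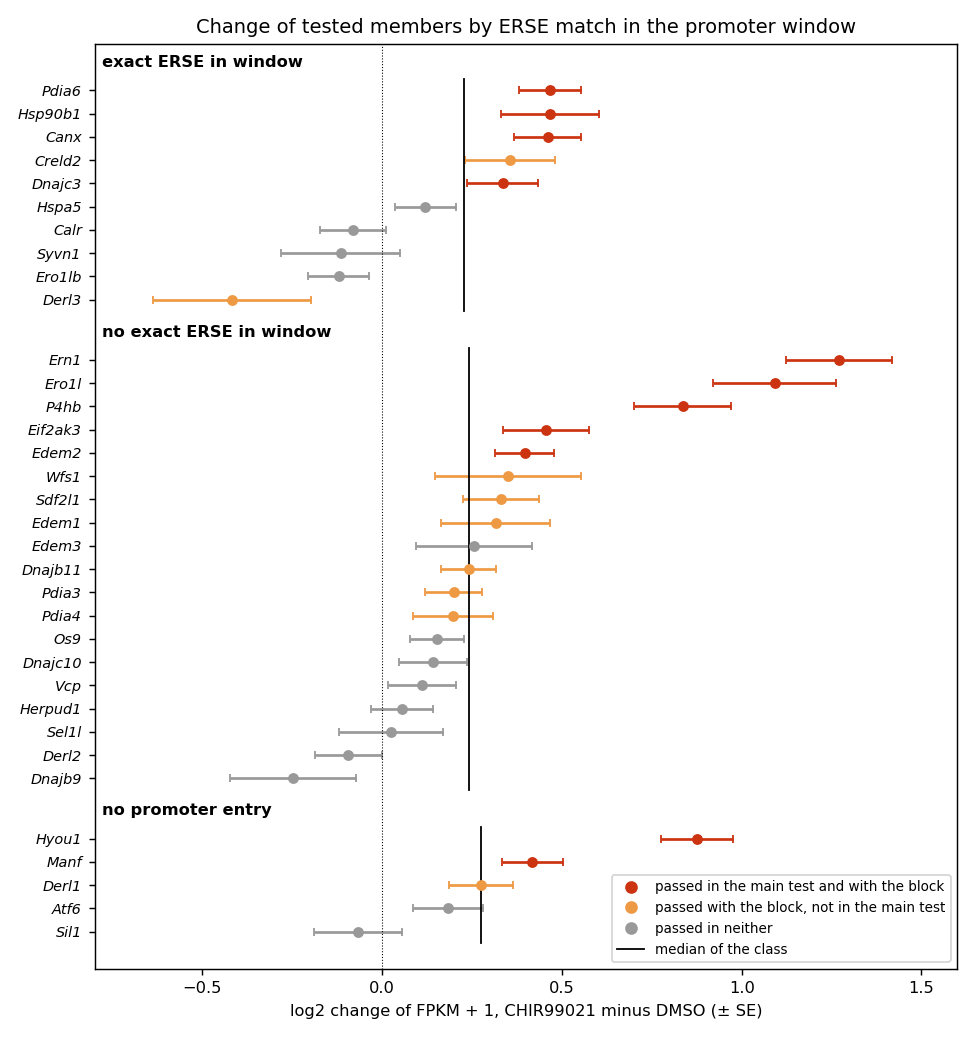
Log2 change (x axis, log2 of FPKM + 1, CHIR99021 minus DMSO, with the standard error) of the 34 tested genes, split by whether the promoter window held an exact ERSE, held none, or was not in the RefSeq table; colours give the calls and black lines the class medians. The medians with and without the element are 0.23 and 0.24, and the highest values lie in the class without it. That class includes Dnajb11, Herpud1 and Vcp, whose windows held another stress element.

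Other genes of the pathway were taken from 4 lists. Over all tested genes, 8.13% were called higher and 13.3% lower (18.4% and 24.4% with the block), and the list counts are to be read beside those shares. Of 20 tested transcription factors and signalling genes of the unfolded protein response, 2 were higher and 2 lower (4 and 7 with the block), and the median log2 change was -0.06. The transcript of Xbp1, the target of IRE1, had 128, 125 and 133 FPKM in DMSO and 150.2, 161 and 147 FPKM in CHIR99021, and missed in the main test (adjusted p = 0.0567). It passed with the block (0.0172), with upper-quartile scaling (0.0224) and with quantile scaling (0.0252). Gene-level FPKM do not separate its spliced from its unspliced form. Atf4, the factor translated when eIF2 is phosphorylated, had 245 ± 11.1 and 239 ± 20.5 FPKM (adjusted p = 0.829). Ddit3, the stress factor CHOP, had 72.2, 31.7 and 45.2 FPKM in DMSO and 32.5, 25.4 and 22.0 in CHIR99021, and missed in the main test (adjusted p = 0.0746). It was called lower with the block (0.00584) and without DMSO replicate 2 (0.0186). Ppp1r15a, whose product reverses the phosphorylation of eIF2, fell from 102 ± 16.1 to 68.0 ± 4.80 FPKM (adjusted p = 0.019). Nfyc, an NF-Y subunit gene, fell from 30.2 ± 1.78 to 24.2 ± 0.945 (adjusted p = 0.0408), a call that was lost with quantile scaling (0.0580) and upper-quartile scaling (0.0623). Creb3l2, a transcription factor gene of the ATF6 type, rose from 2.19 ± 0.216 to 3.59 ± 0.212 (adjusted p = 0.0288), and Eif2s1, the alpha subunit of eIF2, from 48.5 ± 3.78 to 59.5 ± 2.23 (adjusted p = 0.0472).

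Of 16 other tested genes of the disulphide isomerase family, 2 were higher and 1 lower (4 and 1 with the block), and the median log2 change was -0.03. The shares over all tested genes were 8.13% higher and 13.3% lower (18.4% and 24.4% with the block). Erp44, whose product retains ERO1 proteins in the early secretory pathway, fell from 116 ± 5.96 to 75.8 ± 3.51 FPKM (adjusted p = 0.00224). Txndc11 rose from 16.3 ± 2.197 to 29.5 ± 2.69 (adjusted p = 0.00377) and Tmx1, a membrane-bound isomerase, from 24.3 ± 1.14 to 31.6 ± 0.864 (adjusted p = 0.0169). The fall of Erp44 and the rise of Txndc11 were called without any one of the 6 libraries (adjusted p at most 0.0138 and 0.0226), and the rise of Tmx1 was called in 3 of the 6 such fits. Of 22 tested genes of the glycoprotein folding cycle and ER export, 6 were higher and 0 lower (10 and 0 with the block), and the median log2 change was 0.22. Lman1, a lectin that carries glycoproteins to the Golgi, rose from 24.5 ± 3.93 to 41.5 ± 1.88 FPKM (adjusted p = 0.00577), and Kdelr2, a receptor that returns escaped ER proteins, from 40.9 ± 2.67 to 56.4 ± 4.71 (adjusted p = 0.0135). Mzb1, a B cell chaperone that helps assemble IgM, rose from 332 ± 43.1 to 468 ± 56.2 (adjusted p = 0.0334) and Sep15, a selenoprotein that binds the glucosyltransferase of this cycle, from 100.01 ± 18.0 to 142 ± 14.998 (adjusted p = 0.0381).

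Of 46 other tested ERAD genes, 4 were higher and 2 lower (7 and 5 with the block), and the median log2 change was -0.01. The part called higher was near that of all tested genes, 8.13% (18.4% with the block), and 13.3% of all tested genes were lower (24.4% with the block). Vimp, which encodes a selenoprotein that links VCP to the derlins, rose from 80.9 ± 7.40 to 113 ± 2.86 FPKM (adjusted p = 0.0081). Ube2g2, a ubiquitin-conjugating enzyme of ERAD, rose from 29.7 ± 2.45 to 38.5 ± 0.693 (adjusted p = 0.0227), and the mannosidase gene Man1b1 from 22.1 ± 1.599 to 30.3 ± 3.11 (adjusted p = 0.0239). Tmub1 fell from 10.3 ± 0.898 to 6.51 ± 0.632 (adjusted p = 0.0122). The 4 lists were made with earlier results of these data known, and the number of their genes called moved from 19 to between 5 and 16 on leaving out a library (5 without CHIR99021 replicate 3). The calls of Erp44, Txndc11, Lman1 and Vimp held without any one library. Those of Creb3l2 and Eif2s1 were lost on leaving out any one library (adjusted p from 0.0568 to 0.0915 and from 0.0578 to 0.157). Tmub1 and Kdelr2 kept their call in 5 of the 6 such fits, Tmx1 in 3, Ppp1r15a, Mzb1, Sep15, Ube2g2 and Man1b1 in 2, and Nfyc in 1.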

How the data were processed

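Messenger RNA from 6 cultures was sequenced with a stranded kit, per the labels' protocols. The submitters' processing notes name cutadapt 1.12, TopHat2 2.1.1, Cufflinks 2.2.1 and build mm10. The annotation, the strand setting and the fragment totals were not given in the sources used here. Each library has a table of gene FPKM with confidence limits, made by the authors, per the file headers. As the values are no counts, no count model was used. Starts of gene spans were converted to count from 1.

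FPKM were transformed to log2(FPKM + 1), and limma 3.58.1 (R 4.3.3, eBayes with a variance trend) compared CHIR99021 with DMSO for every gene whose mean reached 1 FPKM. P-values are two-sided, with Benjamini-Hochberg adjustment over all 10096 tested genes and a threshold of 0.05. The test was checked on simulated data with independent noise in each library and planted changes larger than those of most listed genes called. That check does not cover the pairing by replicate number or small changes. Python 3.11.15 with pandas 2.3.3, scipy 1.17.1 and matplotlib 3.10.9 did the rest. The series describes biological triplicates. The members, their roles, the lists and the tests were chosen with earlier results of these data known. Named genes are the members, up to 4 genes of each other list with the smallest adjusted p under 0.05, and Xbp1, Atf4 and Ddit3. Alg12, Irf4, Prdm1, Sdc1, Igj, Tnfrsf17, Lck, Col1a2, Col3a1, Fn1, Thy1, Cd3e, Cd8b1, Cd14, Itgam and Cd68 were named after their values were seen. No pair of libraries had more than 0.228% identical values.

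In both groups the sample titles carry the numbers 1 to 3. Deviations from the group means correlated across genes at 0.535, 0.490 and 0.517 for same-numbered libraries and at -0.352 to -0.140 for others. Deviations sum to 0 within each group, so the negative values follow from the positive ones and are no separate evidence. The numbers were taken to pair the libraries in the fits with the block. The main test, the fits with a library left out and the permutation test did not use this pairing. Other settings were the pseudocount, the limit on level, the scaling between libraries, the variance trend, the replicate block and leaving out each library. Promoter windows came from RefSeq (GRCm38.p6), matched by symbol or synonym. Sequence positions in them are on that assembly.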

Additional observations from a re-analysis of the deposited data

How the results depend on the processing

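The number of the 35 genes called was 11 in the main test, between 8 and 15 with another pseudocount, limit on level, scaling or no variance trend, 20 with the replicate block, and 6 to 10 with a library left out. Pairing by replicate number with the replicate block gave 4321 genes called over all genes, and 38 in the 4 other lists, against 2164 and 19. With the replicate block and quantile or upper-quartile scaling, added after seeing the data, 25 and 26 of the 35, 4460 and 4500 of all genes, and 46 and 44 list genes were called. Leaving out a library gave 1069 to 2038 over all genes and 5 to 16 in the lists, which also had 12 with no limit on level and 11 without the variance trend. Changes near 0 altered sign: Sil1 was at 0.0049 with quantile scaling, with or without the block, and ran from -0.13 to 0.012 with a library left out (above 0 without DMSO replicate 1), Syvn1 ran from -0.27 to 0.021 (above 0 without DMSO replicate 2), and Sel1l from -0.11 to 0.12 (-0.11 without DMSO replicate 1, -0.056 without CHIR99021 replicate 2). The cause of these shifts was not tested. The block changed no member's call other than the 9 given above. The confidence limits bound single libraries only, and 3 libraries per group limit what small changes can pass.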

Other observations

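The ERSE-II letters were also found in the windows of 10 genes outside the list. Of these, 6 were tested, and 3 rose and 0 fell (3 higher and 1 lower with the block). The shares over all tested genes were 8.13% higher and 13.3% lower (18.4% and 24.4% with the block). The 10 genes were picked by the letters alone and are given as values. Nucb1, which encodes a calcium-binding protein of the Golgi, had 45.8, 38.5 and 46.9 FPKM in DMSO and 53.4, 53.7 and 57.8 in CHIR99021 (adjusted p = 0.0489 by limma). Lgalsl (log2 change 0.75, adjusted p = 0.0117) and Rcl1 (0.43, adjusted p = 0.0468) also rose. Lrif1 had 5.72, 7.52 and 5.84 FPKM in DMSO and 5.12, 5.53 and 4.01 in CHIR99021, with no overlap. It was called lower with the block (adjusted p by limma = 0.0394) but not in the main test (0.183). Krtcap2, a subunit gene of the oligosaccharyltransferase, had 149 ± 31.1 and 161 ± 18.0 FPKM (SD, n = 3 per group; adjusted p = 0.622 by limma). Rbm39 had 112 ± 14.4 and 109 ± 16.3 FPKM (adjusted p = 0.858 by limma). All 4 tested genes outside the list with the longer ERSE (Adcy3, Alg12, Hnrnpa3 and Pan2) had log2 changes between -0.16 and -0.01, and none was called by limma (lowest adjusted p 0.518, for Adcy3).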
